A study of Mus musculus with 16 samples.

Results

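The genes described here are 10 immediate-early genes, chosen by name: Fos, Fosb, Jun, Junb, Jund, Atf3, Egr1, Ier2, Nr4a1 and Nr4a2. All 10 were found among the 46078 genes of the count table, and all 10 were among the 13661 genes that passed the filter on low counts. They were followed in 16 bulk RNA-seq samples of LSK SLAM HSCs from wild-type B6.SJL mice, sorted by MAC-1, the integrin of CD11B and CD18. Untreated steady-state (SS) mice gave 3 SS MAC-1- and 3 SS MAC-1low samples. Lethally irradiated recipients (900 cGy), 4 weeks after they received 8000 LSK cells (lineage-negative cells positive for cKIT and SCA1), gave 3 4 week MAC-1-, 4 4 week MAC-1low and 3 4 week MAC-1+ samples. Marrow of both kinds of mice was crushed from bone, enriched for cKIT, stained and sorted before the RNA was frozen, and the labels give neither the age of the mice nor how many of them stand behind a sample.

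Immediate-early genes are transcribed within minutes of a stimulus from factors already present in the cell, and their mRNAs decay quickly. Fos and Fosb encode Fos proteins, which bind DNA as dimers with partners such as the Jun proteins, and dimers of this kind form the transcription factor AP-1. Jun, Junb and Jund encode the Jun partners, Atf3 encodes a stress-induced partner that often represses, Egr1 encodes a zinc finger factor, Nr4a1 and Nr4a2 encode orphan nuclear receptors, and Ier2 encodes a small nuclear regulator. In HSCs, Egr1, Nr4a1 and several AP-1 subunits have been linked to quiescence, while in many tissues the same genes are also induced by the handling of cells for sorting.

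Promoters are shown from among the members whose 4 week MAC-1+ samples all lay above all 4 week MAC-1- samples, which were Fos, Jun, Junb and Nr4a1 (as in 10.2% of all genes). RefSeq sequences of GRCm38.p6, from 250 bases before to 50 bases after the start site, were examined for 8 of the 10 members, and those of Egr1 and Ier2 were not examined here. The letters TGACG, the core of the site that CREB and ATF proteins bind, stood on either strand in 6 of these 8 promoters and in 20.8% of all 32851 promoters. The 3 sequences are shown because they hold these letters, which are in capitals (TGACG, or CGTCA where it lies on the other strand).
Fos, chr12:85473640-85473939, plus strand: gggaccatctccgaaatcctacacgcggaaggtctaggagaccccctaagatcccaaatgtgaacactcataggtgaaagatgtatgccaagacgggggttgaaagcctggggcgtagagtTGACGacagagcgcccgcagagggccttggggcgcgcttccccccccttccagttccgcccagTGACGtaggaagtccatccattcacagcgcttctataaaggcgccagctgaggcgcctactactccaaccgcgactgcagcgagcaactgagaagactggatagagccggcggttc
Junb, chr8:84978699-84978998, minus strand: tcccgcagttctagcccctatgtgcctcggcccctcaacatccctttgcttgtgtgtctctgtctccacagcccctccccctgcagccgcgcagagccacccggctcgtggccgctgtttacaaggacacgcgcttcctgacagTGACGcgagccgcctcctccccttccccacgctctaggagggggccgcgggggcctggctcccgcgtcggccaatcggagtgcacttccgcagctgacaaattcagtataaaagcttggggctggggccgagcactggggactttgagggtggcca
Nr4a1, chr15:101266596-101266895, plus strand: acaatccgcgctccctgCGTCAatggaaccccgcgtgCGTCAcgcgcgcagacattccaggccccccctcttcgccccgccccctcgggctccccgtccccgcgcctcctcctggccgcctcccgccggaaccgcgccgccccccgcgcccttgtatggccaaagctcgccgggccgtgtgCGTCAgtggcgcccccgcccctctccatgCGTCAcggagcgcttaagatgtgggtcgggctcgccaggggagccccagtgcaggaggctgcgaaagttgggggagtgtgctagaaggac
In the Fos promoter the letters lay at -129 to -125 and at -66 to -62 from the start site, and TATAAA followed at -33 to -28. Junb held 1 copy at -106 to -102 and Nr4a1 held 4, while Jun held 0. The start site that RefSeq gives for Nr4a1 lies inside the gene as annotated by GENCODE M21, downstream of its first base. The start site of Atf3 likewise lies inside the annotated gene, and the window of Jund lies wholly upstream of the annotated gene. The start site that RefSeq gives for Junb lies upstream of the annotated gene, and TATAAA stood at 1 to 6 from that site. Fosb and Atf3 held 1 copy each and Nr4a2 held 4. The full site TGACGTCA, which contains the core, was found in 0 of 8 promoters (1.79% of all), the AP-1 site TGANTCA in 0 of 8 (7.81%), the CArG box that SRF binds in 0 of 8 (1.63%), and TATAAA in 2 of 8 (8.32%). These matches describe the letters of this window and say nothing of binding.

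Fos was by far the most abundant member. Its mean over the 16 samples was 545 CPM per kb of exon (CPM, counts scaled to a common library total), against 89.1 for Ier2, 61.0 for Egr1, 53.4 for Jun, 17.8 for Fosb and 15.5 for Junb on the same scale. Jund (6.53), Nr4a2 (5.59), Atf3 (4.99) and Nr4a1 (2.88) were the lowest. Within single samples Fos ranked between 57 and 265 among all genes per length, and its reads made up 51.4% to 70.7% of the reads of the 10 members. Among the 5 AP-1 subunits Fos held 78.1% to 88.5% of the level per kb in every sample, so that the Fos transcript exceeded the summed transcripts of its Jun partners in each of the 16 samples.

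**Figure D1:**
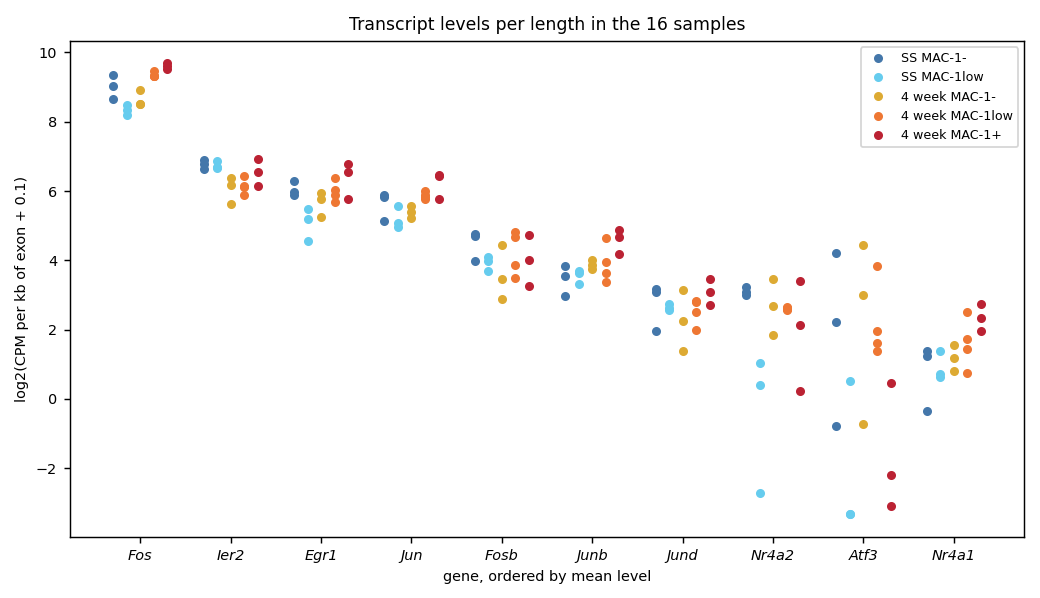
Level of each member per length in the 16 samples, as log2 of CPM per kb of exon plus 0.1, with genes in order of their mean level and samples coloured by population. Fos (mean 545 CPM per kb) lies above every other member in every sample, and Atf3 and Nr4a2 show the widest scatter.

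The members differed in how closely the samples of 1 population resembled each other. For Fos the within-population SD of log2 CPM was 0.19, and only 0.982% of the 9679 genes averaging 100 counts or more per sample had a smaller one, against a median of 1.03 over those genes. Ier2 (0.27), Jun (0.30), Egr1 (0.38) and Junb (0.39) were also steady, Jund (0.54), Fosb (0.60) and Nr4a1 (0.66) less so, and Nr4a2 (1.34) and Atf3 (2.29) varied more than the median gene. Differences between populations took 89.2% of the variance of Fos and 33.5% of that of the median gene. The genes compared were not matched for abundance, and Fos had 13322 to 46717 counts per sample. The part of read depth in these values was not tested. In bulk RNA, a change in the share of cells that carry a transcript and a change in its amount per cell cannot be told apart.

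The order of the populations was followed first for Fos (GRCm38 chr12:85473890-85477273, plus strand, protein coding). Scaled CPM were 1224, 954 and 1520 in the SS MAC-1- samples, 837, 761 and 687 in SS MAC-1low, and 858, 1131 and 855 in 4 week MAC-1-. They were 1489, 1518, 1506 and 1650 in 4 week MAC-1low and 1721, 1941 and 1848 in 4 week MAC-1+ samples. All 4 week MAC-1+ samples lay above all other samples, and all SS MAC-1low samples lay below all other samples. The mean level was 1837 ± 110 CPM (SD, n = 3) in 4 week MAC-1+, 1541 ± 73.7 (n = 4) in 4 week MAC-1low, 1233 ± 283 (n = 3) in SS MAC-1-, 948 ± 159 (n = 3) in 4 week MAC-1- and 762 ± 75.0 (n = 3) in SS MAC-1low. Of neighbours in this order, 4 week MAC-1low and SS MAC-1- overlapped, as did SS MAC-1- and 4 week MAC-1-, while 4 week MAC-1- and SS MAC-1low were parted only by 855 against 837 CPM.

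A test of any difference among the 5 populations called 1 member, Fos, with an adjusted p of 0.00533 (edgeR quasi-likelihood F test with Benjamini-Hochberg adjustment, called below 0.1), where 2.22% of all tested genes were called. Egr1 (adjusted p = 0.177) and Jun (0.185) came next in edgeR and were not called. DESeq2, which called 10.9% of the genes, called Fos, Jun and Egr1. Fos kept its call in each of 6 alternatives (adjusted p from 1.32e-12 to 0.0298) and when any 1 of the 16 samples was left out (0.00262 to 0.0215).

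**Figure D2:**
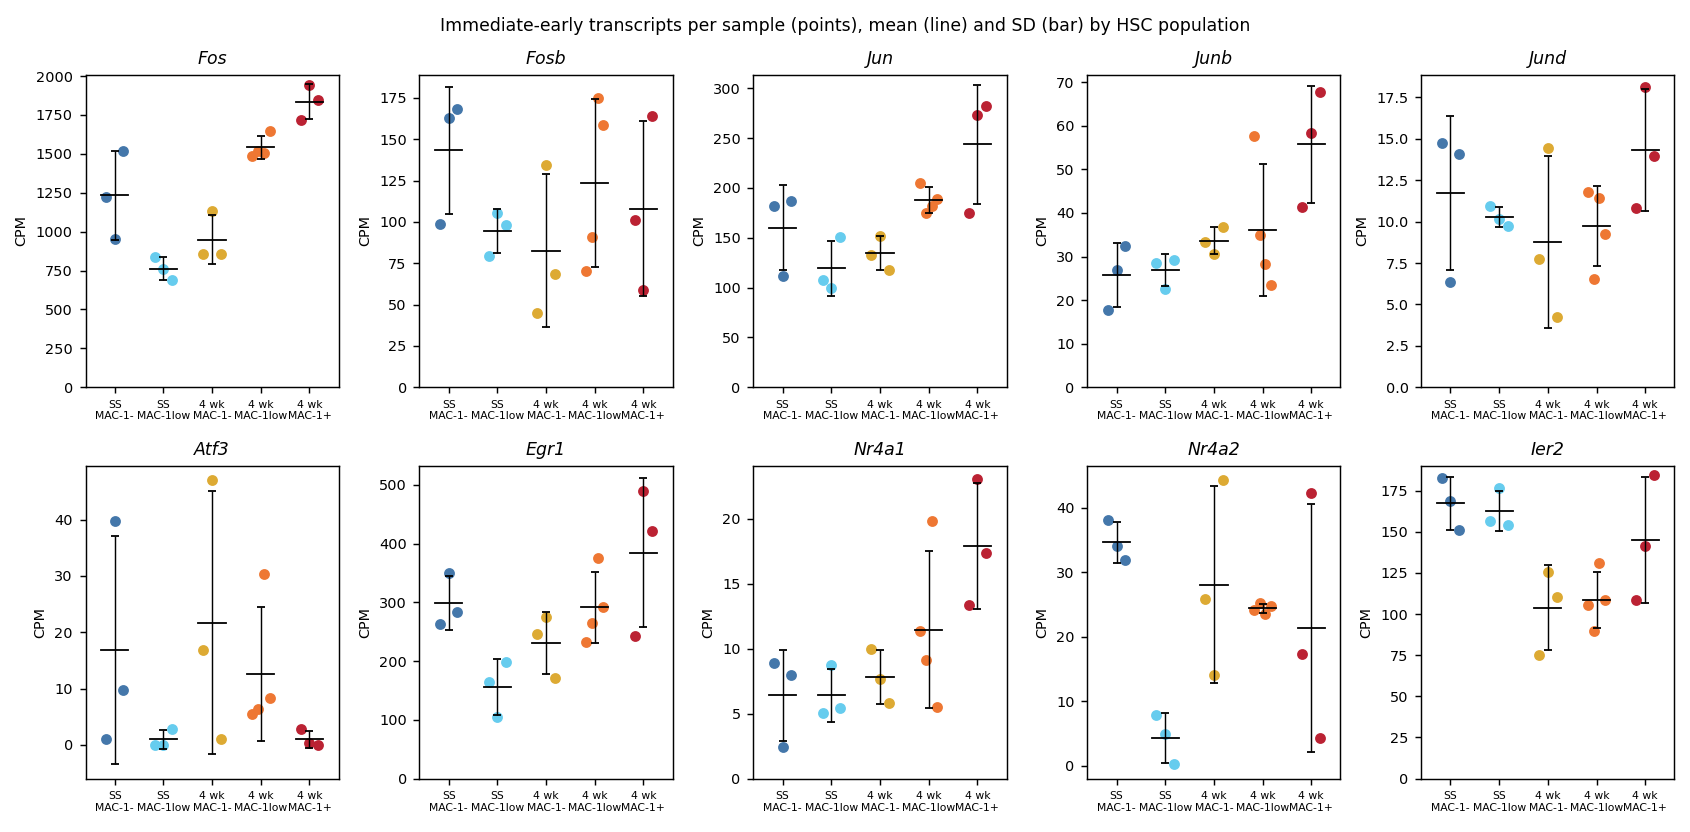
CPM of the 10 members in each sample (points), with the mean (line) and SD (bar) of each population of 3 or 4 samples. The 4 week MAC-1+ samples of Fos sit between 1721 and 1941 CPM, above every other sample, and the SS MAC-1low samples sit between 687 and 837 CPM, below every other sample.

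The study's central contrast at 4 weeks set MAC-1+ against MAC-1- HSCs. Fos rose 1.94-fold (log2 fold change 0.95, SE 0.16, 95% interval 0.61 to 1.30, edgeR adjusted p = 0.00661). It was the only one of the 10 members that edgeR called, against 3.25% of all genes, and DESeq2 called Fos, Jun and Egr1, against 10.2%. In 4 members the 4 week MAC-1+ and MAC-1- samples did not overlap, with MAC-1+ higher, as in 10.2% of all genes. The log2 fold change was positive in 8 of the 10, with a median of 0.72 over the members and 0.07 over all tested genes.

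Among the Jun subunits, Jun had 133, 152 and 118 CPM in 4 week MAC-1- samples and 175, 274 and 282 in MAC-1+ samples. The groups did not overlap, with a log2 fold change of 0.86 (SE 0.26, adjusted p = 0.129, edgeR). Without 4 week MAC-1+ replicate 1 or without SS MAC-1- replicate 2, the edgeR adjusted p of Jun was 0.0683 and 0.0979. Junb, the Jun partner with 33.4, 30.7 and 36.9 CPM in MAC-1- samples, had 41.3, 58.4 and 67.8 in MAC-1+ samples, again without overlap, at a log2 fold change of 0.73 (SE 0.46, adjusted p = 0.545). Jund overlapped between these populations (4.23 to 14.4 and 10.8 to 18.2 CPM). Junb overlaps Prdx2 on the other strand, and Prdx2 had 6665 to 14550 counts per sample where Junb had 243 to 1713. The strand used in counting is not given. Jun overlaps the antisense gene Junos, with at most 182 counts in a sample, where Jun had 1781 or more.

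Egr1 lay between 171 and 275 CPM in 4 week MAC-1- and between 243 and 490 in MAC-1+ samples, with MAC-1+ replicate 1 the lowest of its group and inside the MAC-1- range. Its log2 fold change was 0.74 (SE 0.30, edgeR adjusted p = 0.287). Nr4a1 had 9.98, 7.66 and 5.80 CPM in MAC-1- and 13.3, 23.1 and 17.4 in MAC-1+ samples. These did not overlap, but at 96 to 439 counts a sample the log2 fold change of 1.20 carried an SE of 0.86 (edgeR adjusted p = 0.624). Fosb (0.39, SE 0.46) and Ier2 (0.48, SE 0.26) had positive values with overlapping samples. Nr4a2 (-0.40, SE 0.94) and Atf3 (-4.41, SE 2.19, adjusted p = 0.405) were the 2 members with negative values.

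Summed markers of some other cell types differed in this contrast. The summed level of 7 neutrophil markers was 164, 957 and 6974 CPM in 4 week MAC-1+ replicates 1, 2 and 3 and at most 168 CPM in every other sample. In these markers replicate 1 lay within the range of SS MAC-1low samples (131 to 168 CPM). It lay above all 4 week MAC-1- (23.1 to 69.3 CPM) and 4 week MAC-1low samples (31.5 to 156 CPM). Replicate 1 had 1721 CPM of Fos, and without replicate 3 the log2 fold change of Fos against 4 week MAC-1- was 0.98 (edgeR adjusted p = 0.0227). Among the MAC-1+ samples, that same replicate 1 was the lowest for Fos, Jun, Junb, Jund, Egr1, Nr4a1 and Ier2. The 4 megakaryocyte markers summed to 4061 to 6587 CPM in 4 week MAC-1- samples, to 119 to 167 in 4 week MAC-1+ samples and to at most 1064 in the others. HSC markers, all 8 of which were detected in each population, summed to 691 to 890 CPM in 4 week MAC-1- and 2271 to 3457 CPM in 4 week MAC-1+ samples. Erythroblast markers summed to 12.0 to 19.1 CPM in 4 week MAC-1- and 77.3 to 178 CPM in MAC-1+ samples, NK cell markers to at least 323 and at most 176 CPM, and monocyte or macrophage markers to 416 to 604 and 715 to 737 CPM. None of these 3 sums overlapped between the populations, and edgeR called 1 gene in each of these lists, against 3.25% of all genes. Few of their genes were tested: 4 erythroblast, 2 NK cell and 3 monocyte or macrophage markers. Of these, 3, 1 and 2 had positive log2 fold changes, so the sums do not stand for each marker. B cell and T cell markers summed to at most 170 and 1.81 CPM in any sample. The part of these markers in the values of the members was not tested.

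**Figure D3:**
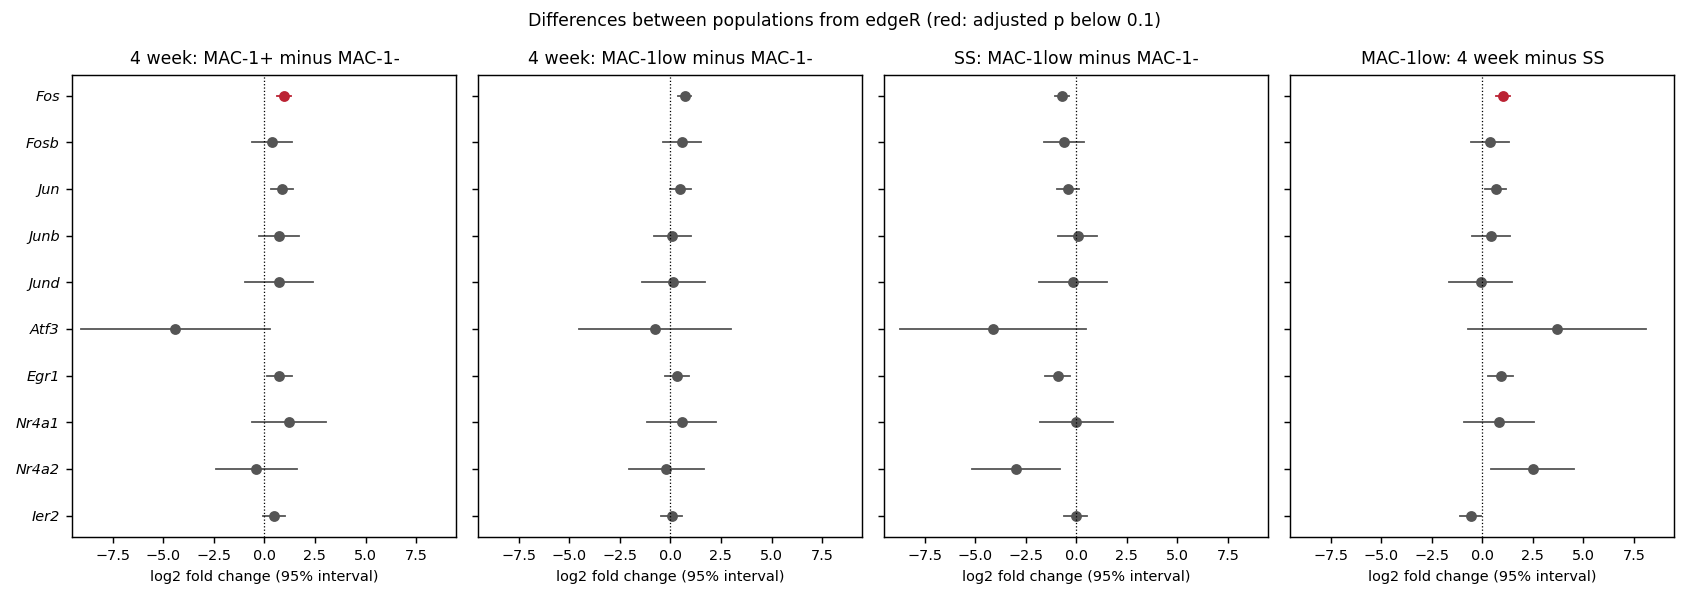
Log2 fold change (points) with 95% interval (lines) of the 10 members in 4 comparisons, from edgeR, with adjusted p below 0.1 in red. Fos has the narrowest interval in each panel, lies at 0.95 for 4 week MAC-1+ against MAC-1- and at -0.69 for SS MAC-1low against MAC-1-, and is red in the first and the last panel.

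The 4 week MAC-1low population, compared with the same 4 week MAC-1- samples, had a Fos log2 fold change of 0.70 (SE 0.15, 95% interval 0.38 to 1.03), and its 4 samples all lay above the MAC-1- samples. The adjusted p of 0.107 missed the threshold, so 0 of the 10 members were called by edgeR, against 0.278% of all genes. At an unadjusted p under 0.05 in edgeR were 1 member and 7.25% of all genes. DESeq2 called Fos alone, against 3.12% of all genes, and without SS MAC-1- replicate 2 or 3, which are not in the groups compared, edgeR gave Fos an adjusted p of 0.0690 and 0.0663. Fos and Jun (175 to 205 CPM against 118 to 152) did not overlap, with MAC-1low higher, as in 5.23% of all genes. Fosb (0.58), Egr1 (0.34), Nr4a1 (0.55), Junb (0.10), Jund (0.15) and Ier2 (0.07) had positive log2 fold changes with overlapping samples, and Atf3 (-0.78) and Nr4a2 (-0.20) had negative ones.

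Between 4 week MAC-1+ and MAC-1low HSCs, edgeR called 0 members and 0% of the genes, with 0 members and 936 genes at an unadjusted p under 0.05, and DESeq2 called 0 members and 2.42% of the genes. The log2 fold change of Fos was 0.25 (95% interval -0.07 to 0.57), and its samples did not overlap, with MAC-1+ higher as in 3.75% of all genes. Atf3 was the only member that was lower in MAC-1+ without overlap, as were 4.48% of all genes, at 2.75, 0.251 and 0.0396 CPM against 5.39, 6.43, 30.4 and 8.24 CPM. At 1 to 58 counts in the MAC-1+ samples this rests on few reads (log2 fold change -3.63, SE 2.06, edgeR adjusted p = 0.790). The 3 comparisons at 4 weeks share samples and are not independent of each other.

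In SS HSCs the order was the other way round. SS MAC-1low samples had less Fos than SS MAC-1- samples, 0.62 times the level, with a log2 fold change of -0.69 (SE 0.16, 95% interval -1.04 to -0.35, edgeR adjusted p = 0.324). The samples did not overlap. Egr1 had 165, 105 and 198 CPM in MAC-1low and 263, 350 and 283 in MAC-1- samples (log2 fold change -0.94, SE 0.30, adjusted p = 0.481, edgeR). Nr4a2 had 7.88, 4.98 and 0.206 CPM against 38.1, 34.0 and 31.9, at a log2 fold change of -2.99 (SE 1.02, edgeR adjusted p = 0.495). These 3 members were lower without overlap, as were 5.38% of all genes.

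edgeR called 0 members in this SS comparison and 0.0146% of all genes. At an unadjusted p under 0.05 in edgeR were 3 members and 9.36% of all genes. DESeq2 called Fos, Egr1 and Nr4a2 and 5.6% of all genes. Without SS MAC-1- replicate 2, the SS MAC-1- sample with the least Fos, the log2 fold change of Fos was -0.85 with an edgeR adjusted p of 0.0778. Atf3 had 0 counts in SS MAC-1low replicates 1 and 2, which allows up to 3 counts in each, and 56 counts in replicate 3, against 14 to 757 counts in SS MAC-1- samples, so the populations overlapped. Jun (-0.42) and Fosb (-0.60) had negative values with overlapping samples, and Junb (0.06), Nr4a1 (0.00), Jund (-0.19) and Ier2 (-0.04) had values nearer 0, with intervals from -0.91 to 1.04 for Junb, -1.81 to 1.82 for Nr4a1, -1.87 to 1.49 for Jund and -0.60 to 0.51 for Ier2.

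Whether the difference between MAC-1low and MAC-1- HSCs was itself different at 4 weeks and in SS was then tested. This test was chosen after seeing the data. The difference of the differences was 1.40 on the log2 scale (SE 0.22, 95% interval 0.92 to 1.87, edgeR adjusted p = 0.0583), and Fos was the 1 member called, against 0.0586% of all genes. DESeq2 called Fos and Egr1, against 4.68% of all genes. In edgeR the value was 1.27 for Egr1 (SE 0.41, adjusted p = 0.432), 0.91 for Jun (SE 0.36, adjusted p = 0.491) and 2.79 for Nr4a2 (SE 1.33, adjusted p = 0.580), and it was positive in all 10 members, with a median of 1.04 against 0.03 over all genes. The call for Fos was lost (adjusted p from 0.108 to 0.185) without SS MAC-1low replicate 2 or 3, 4 week MAC-1- replicate 1 or 3, or 4 week MAC-1low replicate 1 or 4, while the value stayed between 1.22 and 1.55 when any 1 sample was left out.

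**Figure D4:**
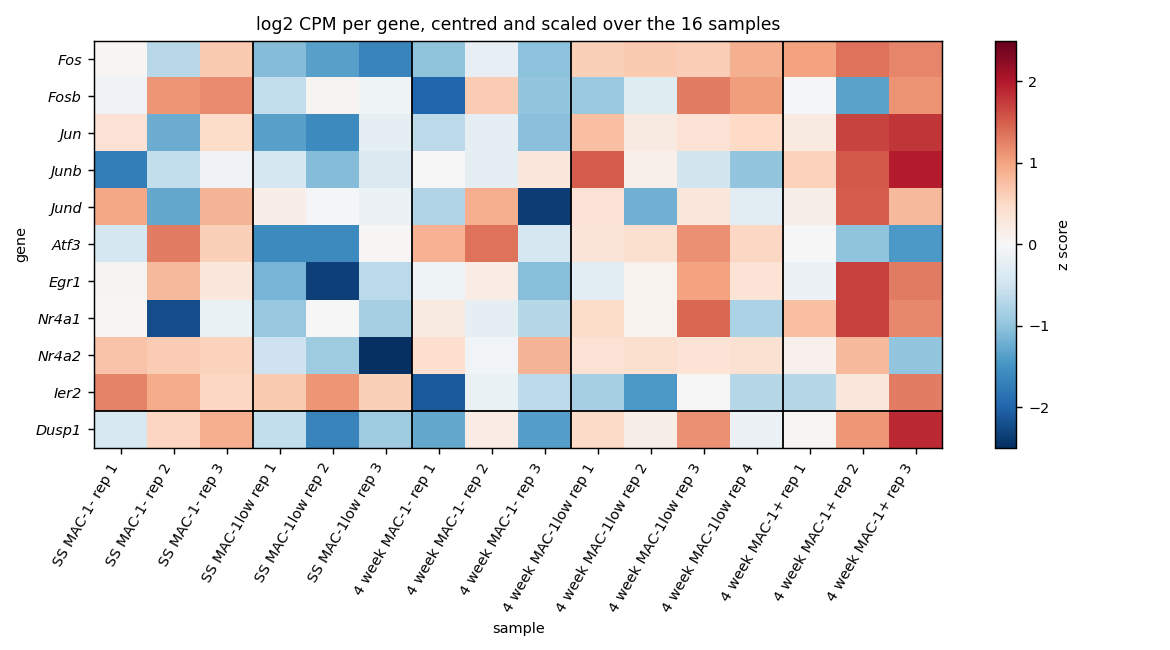
Log2 CPM of each member and of Dusp1, centred and scaled for each gene over the 16 samples (z score, red higher, blue lower), with samples in columns and lines between populations. Fos is blue in all SS MAC-1low samples and red in all 4 week MAC-1low and MAC-1+ samples, and Ier2 is red in all SS samples.

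HSCs of 4 weeks and of SS were compared within each MAC-1 level. They differ in transplantation and in irradiation of the host together, and these cannot be told apart. In MAC-1low HSCs, Fos rose 2.02-fold from SS to 4 weeks (log2 fold change 1.02, SE 0.15, 95% interval 0.69 to 1.35, edgeR adjusted p = 0.0295). It was the 1 member called, against 0.0439% of all genes, and DESeq2 called Fos, Egr1 and Nr4a2, against 4.01%. The edgeR call was lost without any 1 of the SS MAC-1low replicates (adjusted p of 0.119, 0.173 and 0.122 without replicates 1, 2 and 3) and without 4 week MAC-1low replicate 1, 3 or 4 (0.107, 0.152 and 0.139), and it was also lost when only the 2 groups compared were fitted (0.137). Fos, Jun, Egr1, Nr4a2 and Atf3 were higher at 4 weeks without overlap, as were 5.44% of all genes. Nr4a2 was the tightest of them at 4 weeks, at 24.1, 25.2, 23.6 and 24.8 CPM against 0.206 to 7.88 CPM in SS (log2 fold change 2.49, SE 0.96, edgeR adjusted p = 0.501). Ier2 was lower without overlap, as were 4.98% of all genes.

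In MAC-1- HSCs, Fos at 4 weeks had 0.77 times its SS level (log2 fold change -0.38, SE 0.16, 95% interval -0.72 to -0.04, edgeR adjusted p = 0.445), with overlapping samples. edgeR called 0 members and 0.432% of the genes, and DESeq2 called 0 members and 6.83%. At an unadjusted p under 0.05 in edgeR were 2 members and 10.4% of all genes. Ier2 was the 1 member lower at 4 weeks without overlap, as were 7.4% of all genes. The log2 fold change was negative in 7 of the 10 members, with a median of -0.34 against -0.03 over all genes.

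Ier2 followed an order of its own, lower at 4 weeks at both shared levels of MAC-1. It had 183, 168 and 151 CPM in SS MAC-1- and 156, 176 and 154 in SS MAC-1low samples. At 4 weeks it had 75.3, 126 and 110 CPM in MAC-1-, 105, 89.7, 131 and 109 in MAC-1low and 109, 142 and 185 in MAC-1+ samples. Every MAC-1- and MAC-1low sample of 4 weeks lay below every SS sample, and Ier2 was the only member of which that was true, as it was of 0.52% of all genes. Averaged over MAC-1- and MAC-1low, the log2 fold change from SS to 4 weeks was -0.63 (SE 0.18, 95% interval -1.01 to -0.25, edgeR adjusted p = 0.147). edgeR called 0 members in this comparison and 0.864% of all genes, and DESeq2 called Ier2 and 8.51%. At an unadjusted p under 0.05 in edgeR were 2 members and 12.6% of all genes.

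Fosb, Junb, Jund, Atf3 and Nr4a1 were called in 0 comparisons by edgeR and in 0 by DESeq2. Fosb had mean levels from 82.6 ± 46.3 CPM in 4 week MAC-1- (n = 3) to 143 ± 38.6 in SS MAC-1- (n = 3), and all 5 populations overlapped with at least 1 other. Jund ran from 8.80 ± 5.19 to 14.3 ± 3.68 CPM (n = 3 each). Atf3 spanned 0 to 47.0 CPM, with 1.09 and 47.0 CPM in samples of the same 4 week MAC-1- population.

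Members moved together only in part. Over the 16 samples, which share populations and SMART-Seq amplification, Pearson's r of log2 CPM was 0.86 for Fos with Jun, 0.75 for Jun with Egr1 and 0.72 for Fos with Egr1, each given as a description. With the population means taken out, these values were 0.51, 0.45 and 0.08. The median over all 45 pairs was 0.26, with 10 pairs above 0.5 and 13 below 0. Without the population means the median was 0.08, and the highest value was 0.72, for Fos with Jund. Averaged as z scores over the 10 members, the samples ran from -0.77 to -0.65 in SS MAC-1low, -0.71 to 0.20 in 4 week MAC-1-, -0.13 to 0.48 in SS MAC-1-, -0.10 to 0.60 in 4 week MAC-1low and 0.19 to 0.83 in 4 week MAC-1+ HSCs.

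Genes most like this mean profile, among 9669 other genes averaging 100 counts or more, included Dusp1 (Pearson's r = 0.92, Spearman's rho = 0.90), Ocrl (r = 0.85), Snx4 (r = 0.80) and Krba1 (r = 0.79). Dusp1 encodes a phosphatase that inactivates MAP kinases. Its level was 922 ± 224 CPM in 4 week MAC-1+ (n = 3), 775 ± 120 in 4 week MAC-1low (n = 4), 765 ± 134 in SS MAC-1- (n = 3), 561 ± 141 in 4 week MAC-1- (n = 3) and 519 ± 73.7 in SS MAC-1low samples (n = 3). The means stood in the same order as those of Fos, but Dusp1 was picked for its likeness to a profile that includes Fos. In 4 week MAC-1+ against MAC-1- HSCs, Dusp1 had a log2 fold change of 0.72 (edgeR adjusted p = 0.142).

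Feedback inhibitors, which end an immediate-early response, were followed beside the members. Of 16, which include the Dusp phosphatases and the mRNA decay factors of the Zfp36 family, 2 rose in 4 week MAC-1+ against MAC-1- HSCs and 0 fell, where 3.25% of all genes were called, and DESeq2 called 4, against 10.2% of all genes. The 2 were Zfp36 (log2 fold change 1.39, edgeR adjusted p = 0.0627) and Zfp36l2 (0.83, adjusted p = 0.0105), both binding AU-rich mRNAs such as that of Fos. The log2 fold change was positive in 14 of the 16 there (median 0.50) and in 4 of the 16 in SS MAC-1low against SS MAC-1- (median -0.46). In that SS comparison edgeR called 0 of the 16, with 3 at an unadjusted p under 0.05, against 9.36% of all genes. DESeq2 called 2 of the 16, against 5.6% of all genes. Zfp36l2 also rose in 4 week MAC-1low against MAC-1- HSCs (0.72) and fell by 1.20 on the log2 scale from SS to 4 weeks in MAC-1- HSCs (edgeR adjusted p = 0.00351). Averaged over MAC-1- and MAC-1low, Zfp36l2 and Dusp2 (log2 fold change -1.41, edgeR adjusted p = 0.0794) fell from SS to 4 weeks, although Zfp36l2 had a log2 fold change of -0.01 in MAC-1low HSCs alone.

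A further 26 immediate-early genes, among them Klf6, Mcl1 and Nfkbiz, had 25 genes tested and 0 called by edgeR in any comparison. In at least 1 comparison, 10 had an unadjusted p under 0.05 and DESeq2 called 5. The share of all genes that did so in at least 1 comparison was not computed. Of these 25, 18 had positive log2 fold changes in 4 week MAC-1+ against MAC-1- HSCs (median 0.33, against 0.07 over all genes). In SS MAC-1low against SS MAC-1-, 5 of 25 were positive (median -0.73, against 0 over all genes). In MAC-1low HSCs at 4 weeks against SS, 20 of 25 were positive (median 0.66, against -0.02 over all genes). The 26 genes summed to 846 to 1137 CPM in SS MAC-1low and to 1604 to 1895 CPM in SS MAC-1- samples. At 4 weeks they summed to 1126 to 1388 CPM in MAC-1-, 1599 to 1996 in MAC-1low and 1258 to 1783 in MAC-1+ samples. Klf6, a zinc finger factor, had 164 ± 41.2 CPM in SS MAC-1low (n = 3) and 310 ± 39.5 in SS MAC-1- samples (n = 3). At 4 weeks Klf6 had 316 ± 97.6 CPM in MAC-1- (n = 3), 447 ± 65.0 in MAC-1low (n = 4) and 299 ± 141 in MAC-1+ samples (n = 3), which is not the order of Fos.

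The remaining lists gave few calls. Of 15 other AP-1 and ATF subunits, 12 were tested and 0 called by edgeR (3 at an unadjusted p under 0.05 in at least 1 comparison, 2 by DESeq2). Of the other Egr and Nr4a genes and the Nab co-repressors, 4 of 6 were tested and 0 called by edgeR (2 at an unadjusted p under 0.05, 1 by DESeq2), and the paralogs were scarce, with at most 6.36 CPM of Egr2 and 16.9 CPM of Nr4a3 in any sample. Of 22 upstream kinases and factors, Mef2c was lower in 4 week MAC-1+ against MAC-1- HSCs (log2 fold change -1.20, edgeR adjusted p = 0.0940). It was the 1 of the 22 called there, against 3.25% of all genes. In the other comparisons edgeR called 0 of the 22, against at most 0.864% of all genes between populations and 2.22% in the F test. In at least 1 comparison, 10 of the 22 had an unadjusted p under 0.05 in edgeR, and DESeq2 called 5. For these lists too, the share of all genes in at least 1 comparison was not computed.

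Heat shock genes are also induced by stress and handling. In 4 week MAC-1+ against MAC-1- HSCs the log2 fold change was positive in 0 of the 12 (median -0.70, against 0.07 over all genes). Hspe1 (-1.19, edgeR adjusted p = 0.0125) and Hsp90aa1 (-0.75, adjusted p = 0.0940) fell, where edgeR called 3.25% of all genes. DESeq2 called 2 of the 12, against 10.2% of all genes. Hspa1b, the inducible HSP70, lay at -0.05 (edgeR adjusted p = 0.994). From SS to 4 weeks, averaged over MAC-1- and MAC-1low, Hspa1b rose (log2 fold change 2.42, edgeR adjusted p = 0.0305). It was the 1 of the 12 that edgeR called there, against 0.864% of all genes, and DESeq2 called 3, against 8.51%. The part of sample handling in the levels of the members was not tested.

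Total counts ran from 13781278 to 28580658 per sample, with 14533 to 17576 genes detected, so that 3 counts corresponded to 0.112 to 0.220 CPM. The share of counts on mitochondrial genes was 3.96% to 6.24% in SS MAC-1low samples and 6.56% to 9.62% in all others, so the samples with the least Fos were also those with the lowest share. Its part in the values of the members was not tested. The 10 members took 0.132% to 0.331% of all counts. The labels number the samples of a population but do not say whether they came from separate mice, so p-values measure the spread between these samples, which may be in part technical.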

How the data were processed

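RNA was measured in 16 samples of 5 HSC populations, grouped by their labels. The authors deposited 1 table of raw counts per gene, made from SMART-Seq v4 and Nextera XT libraries by STAR alignment within an nf-core pipeline. The sources used here give neither the counting program and its strand setting nor the genome build and annotation. Reads carry no molecular identifiers, so PCR copies are counted and the floor of 3 counts covers counting error only. 0 columns were left unused.

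Tests were run with edgeR 4.0.16 under R 4.3.3 (TMM, default filter on low counts, robust quasi-likelihood test, 1 model with a mean per population), with adjusted p (Benjamini-Hochberg, 13661 genes) called below 0.1. CPM use TMM-scaled totals and log2 CPM a prior count of 2. Gene places and exon lengths come from GENCODE M21 (GRCm38), which held 98.2% of the identifiers, and promoters from RefSeq. Alternatives were DESeq2 1.42.0, limma 3.58.1 (voom with sample weights), DESeq2 size factors, no filter, only the groups compared, detected genes per sample as a covariate, a replicate block and leaving out each sample. The scripts were tested on simulated data. Figures used matplotlib 3.10.9 (Python 3.11.15). Replicates were compared in 18 pairs, and none agreed within sampling noise. Same-numbered samples of different populations did not deviate together (r from -0.02 to 0.04 in 30 pairs), so the block is only an alternative.

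All 10 members are named, and of the other lists the genes with adjusted p below 0.1 plus at most 4 abundant examples per list. The genes most like the members are the 5 with the highest r with their mean z score, 1 of which is not reported here. The members and lists were chosen with earlier results of these data known.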

Additional observations from a re-analysis of the deposited data

Results flagged for a closer look

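The Fos difference between MAC-1low and MAC-1- HSCs differed between 4 weeks and SS by 1.40 on the log2 scale (SE 0.22, edgeR interaction test over all genes, adjusted p = 0.0583). Every 4 week MAC-1low sample lay above every 4 week MAC-1- sample, and every SS MAC-1low sample lay below every SS MAC-1- sample. The adjusted p ran from 7.59e-07 to 0.415 over 7 alternatives, 6 of which kept the call.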

How the results depend on the processing

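The number of members called was 0 in each alternative for 4 week MAC-1+ against MAC-1low and for 4 week against SS MAC-1-. DESeq2 called 3 members in 4 week MAC-1+ against MAC-1- (edgeR 1), 1 in 4 week MAC-1low against MAC-1- (edgeR 0), 3 in SS MAC-1low against MAC-1- (0), 3 in 4 week against SS MAC-1low (1), 1 in 4 week against SS over both MAC-1 levels (0), 2 in the interaction (1) and 3 in the F test (1). DESeq2 size factors in edgeR and limma-voom each called 2 in 4 week MAC-1+ against MAC-1- (Fos and Jun) and 1 in 4 week MAC-1low against MAC-1- (Fos). With no filter the F test called 2 (Fos and Egr1), and with only the groups compared 0 were called in 4 week against SS MAC-1low (Fos adjusted p = 0.137).

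With the replicate block 0 members were called in 4 week against SS MAC-1low (Fos adjusted p = 0.203) and 0 in the interaction (Fos adjusted p = 0.415), and no other number of called members changed. The replicate numbers in the titles were not taken to pair the samples: 0 of 30 same-numbered pairs had r above 0.1, and 6 of 16 samples correlated best with their own number. The running numbers in the sample descriptions at 4 weeks would group some samples differently from the replicate numbers, and that grouping was not tested. Leaving out 1 sample gave 1 to 2 members in 4 week MAC-1+ against MAC-1- and in the F test (Egr1 joined at adjusted p = 0.0922 without 4 week MAC-1+ replicate 1), and 0 to 1 in 4 week MAC-1low against MAC-1-, SS MAC-1low against MAC-1-, 4 week against SS MAC-1low and the interaction. The cause of these changes was not tested. 0 of the fold changes run under the alternatives (of Fos, Jun, Egr1, Nr4a2 and Ier2) reversed, and Fos in 4 week MAC-1+ against MAC-1- kept its call in all 7 alternatives (adjusted p from 3.28e-07 to 0.0777) and all 16 omissions (0.00358 to 0.0451).

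Of the single values rerun, 669 counted as unchanged, 23 passed the threshold only in the alternative and 15 only in the main test. The 669 include F tests, which have no direction, and 50 mean CPM that moved by less than 1 SD under DESeq2 size factors. Fold changes were rerun only where the main edgeR test gave an unadjusted p under 0.05. Low counts limit Atf3, Nr4a1 and Nr4a2, and 3 or 4 samples a population limit all members. The interaction and its alternatives were chosen after seeing the data.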
